A study of Mus musculus with 16 samples.

Results

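The genes described here build and run the mitotic spindle: the kinases and cyclins of mitotic entry, the spindle checkpoint, the kinetochore, spindle motors, the machinery of cytokinesis and the proteins that shape mitotic chromosomes. A set of 49 genes was chosen by symbol, and the brightest probe set on average, over all 16 arrays, stood for each gene. Of these, 48 were measured among 18193 genes, and Ccnb1 is not analysed here. RNA came from whole lung or whole cerebellum of C57BL/6J mice taken at postnatal day 7, and was hybridised to Affymetrix mouse arrays. There were 4 groups of 4 arrays: dexamethasone lungs, vehicle lungs, dexamethasone cerebella and vehicle cerebella. Dexamethasone is a synthetic agonist of the glucocorticoid receptor, given as a chronic treatment per the series title, while the sources used here give neither its dose and schedule nor the sex of the mice. The 4 arrays of a group are biological replicates per the series' design text, which does not say how mice, litters or pools map to them, so p-values cover the spread between these arrays, which may be partly technical.

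A dividing cell copies its DNA, and then raises cyclin-bound Cdk1 activity to enter mitosis. Chromosomes condense, microtubules attach to them at kinetochores, and a checkpoint holds back anaphase until every kinetochore is attached. Ubiquitin ligases then destroy the cyclins, and a contractile ring parts the daughter cells. Most of these genes are transcribed late in the cell cycle, so in a tissue their RNA is known as a sign of dividing cells. At this age the cerebellum holds an outer layer of dividing granule neuron progenitors, and in the lung the alveolar walls are still being divided up and extended.

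Values are log2 signals made with RMA, a method that gives every probe set a value whether or not its transcript is present. A log2 change is the mean of the dexamethasone arrays minus that of the vehicle arrays, with its standard error from limma's moderated fit over all 16 arrays. Genes with a Benjamini-Hochberg adjusted p under 0.05 over all 18193 genes were called. The organ labels fitted their marker genes: summed linear signals of 6 alveolar type 2 genes ran from 51944 to 79062 in lungs and from 1198 to 1552 in cerebella, and those of 6 differentiated granule neuron genes from 158 to 185 in lungs and from 12810 to 16959 in cerebella. Fewer dividing cells and less RNA per dividing cell cannot be told apart in whole organs.

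In lung, 46 of the 48 measured genes fell with dexamethasone and 0 rose, that is 95.8% of them, where 15.5% of all genes were called lower and 15.7% higher. The median log2 change was -2.32, or 5.01-fold lower, and the median of all genes was 0.05. At least 2-fold lower calls were made for 43 of the 48, against 3.58% of all genes. For 45 of the 48 every dexamethasone lung lay under every vehicle lung, which held for 15.5% of all genes. Ordered by log2 change over all genes, Cenpf had the most negative value of the array in lung, Cep55 was at rank 5 and Aspm at rank 8. The 100 most negative genes held 28 of the 48, and the 500 most negative held 43. These ranks rest on the brightest probe set of each gene. On the second brightest, the lung change was -1.60 for Cenpf, -0.38 for Cep55 and -1.45 for Aspm. Probe sets differed within genes: of all 110 that name one of the 48, 90 were called lower and 0 higher, with 77 of the 79 whose mean was 6 or more and 13 of the 31 dimmer ones. The share over all probe sets was not counted.

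**Figure D1:**
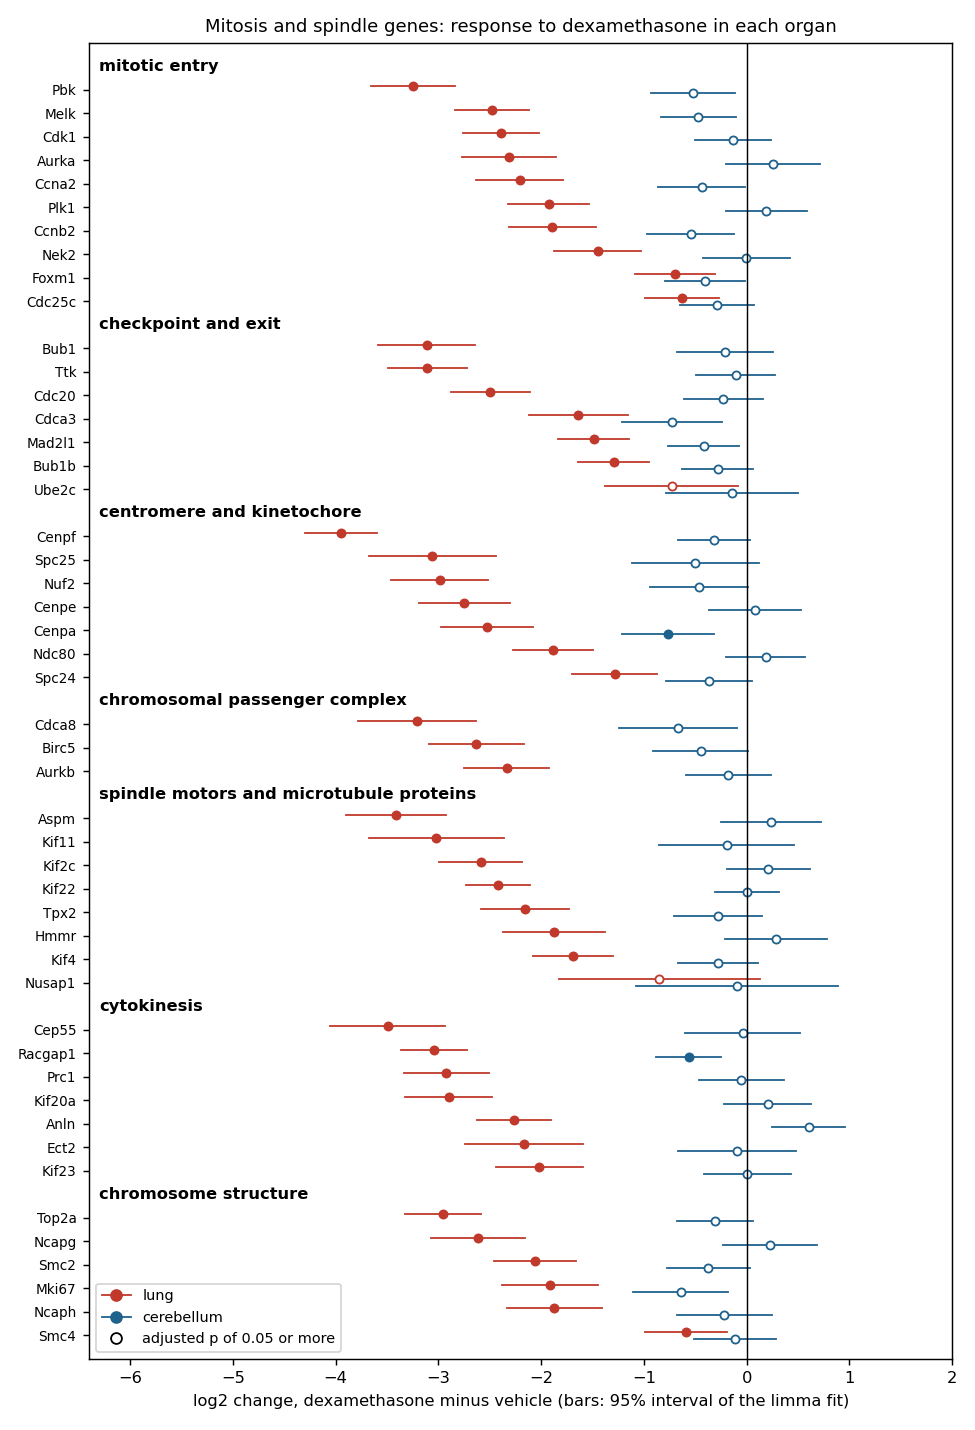
Log2 change of each of the 48 genes (dexamethasone minus vehicle) with its 95% interval, in lung and in cerebellum, with open points for an adjusted p of 0.05 or more. The lung values run from -3.95 to -0.59, and the cerebellar values from -0.77 to 0.60.

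The promoters of the most changed genes are shown because late cell cycle genes are known to carry a short element near their start, the cell cycle homology region, often together with CCAAT boxes that bind the factor NF-Y. RefSeq windows of build GRCm38.p6 run from 250 bases before to 50 bases after a gene's start. Capitals mark TTTGAA or TTCGAA, the forms of the element searched, and CCAAT, each on either strand (TTCAAA and ATTGG are TTTGAA and CCAAT read on the other strand). The first 3 windows belong to the 3 genes with the most negative lung change, and that of Ube2c is shown, chosen after its values were seen, because its RNA was not called in lung. Cenpf lies at chr1:189688037-189688336 on the minus strand, Cep55 at chr19:38054734-38055033 on the plus strand, Aspm at chr1:139454523-139454822 on the plus strand and Ube2c at chr2:164769679-164769978 on the plus strand.
Cenpf: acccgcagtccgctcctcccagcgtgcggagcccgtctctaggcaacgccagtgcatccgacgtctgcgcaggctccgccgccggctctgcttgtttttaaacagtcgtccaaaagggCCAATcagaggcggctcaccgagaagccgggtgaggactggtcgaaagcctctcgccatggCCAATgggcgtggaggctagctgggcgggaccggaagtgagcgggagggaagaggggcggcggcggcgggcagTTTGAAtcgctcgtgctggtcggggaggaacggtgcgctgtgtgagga
Cep55: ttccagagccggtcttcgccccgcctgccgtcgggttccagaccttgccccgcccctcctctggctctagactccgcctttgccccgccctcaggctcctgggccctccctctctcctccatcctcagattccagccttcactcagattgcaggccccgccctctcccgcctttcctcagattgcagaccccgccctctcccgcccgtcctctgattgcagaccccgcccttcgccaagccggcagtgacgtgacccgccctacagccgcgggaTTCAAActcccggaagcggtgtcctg
Aspm: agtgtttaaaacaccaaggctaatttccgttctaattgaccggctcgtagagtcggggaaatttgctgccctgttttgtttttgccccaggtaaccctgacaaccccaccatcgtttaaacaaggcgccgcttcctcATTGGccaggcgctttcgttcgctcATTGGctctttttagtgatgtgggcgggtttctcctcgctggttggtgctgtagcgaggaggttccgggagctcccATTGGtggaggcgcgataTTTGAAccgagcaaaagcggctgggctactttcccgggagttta
Ube2c: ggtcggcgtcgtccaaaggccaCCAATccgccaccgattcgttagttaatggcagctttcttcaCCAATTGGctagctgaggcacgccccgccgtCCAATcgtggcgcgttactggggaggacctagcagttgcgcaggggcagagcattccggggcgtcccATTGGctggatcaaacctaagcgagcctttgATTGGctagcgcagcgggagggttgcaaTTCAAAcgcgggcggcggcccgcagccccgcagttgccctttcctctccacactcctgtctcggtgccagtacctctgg
All 4 windows hold 1 copy of the element, while CCAAT occurs 2 times in Cenpf, 3 times in Aspm, 6 times in Ube2c and is not found in that of Cep55. Counted from 1 at the start, the element begins at base 3 in Cenpf, 25 in Cep55, 7 in Aspm and -29 in Ube2c. A pair of the CCAAT matches in Ube2c, on opposite strands, overlap, and no copy of the element overlaps CCAAT in these 4 windows. Cep55 has another RefSeq window, not shown, at chr19:38054791-38055090, and there the element begins at base -33.

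Promoter windows were found for 40 of the 49 genes, Ccnb1 among them, and the table has no entry for Aurkb, Ccna2, Cdc25c, Foxm1, Kif20a, Pbk, Smc4, Spc24 and Tpx2. TTTGAA or TTCGAA occurred in a window of 31 of the 40 genes (77.5%), against 21.7% of the 27025 genes in the table. Within 50 bases of the start it occurred in 29 of the 40 (72.5%), against 6.12% of all genes in the table and 4.62% of the 14452 measured ones. CCAAT was found in 30 of the 40 (75%), against 41.1% of all genes, and both together in 67.5%, against 8.61%. Among other genes called lower in lung, 5.99% of 2188 held the element within 50 bases of the start, and among genes called higher 3.39% of 2271 did. The window's GC content had a median of 58.7% over the promoters of the 49 genes and 52.7% over all promoters. The median lung change was -2.42 in the 31 measured genes that hold the element and -2.18 in the 8 that do not. Cenpe, Nuf2, Birc5, Melk and Nek2, all called lower in lung, are among those 8. A match is a description of these letters and not a binding site.

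**Figure D2:**
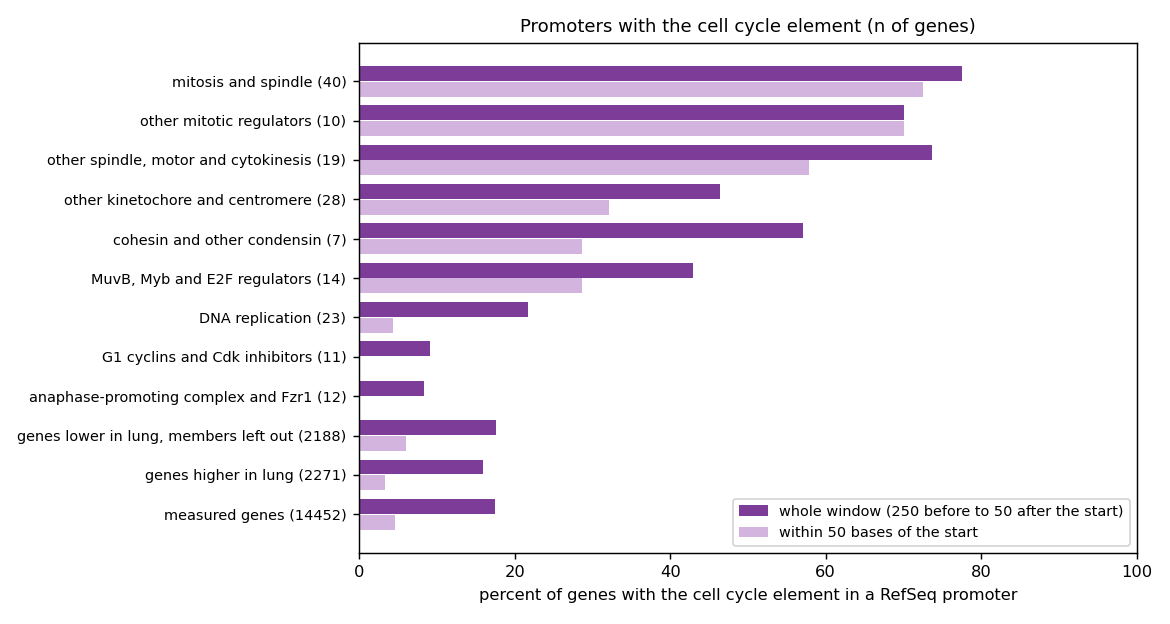
Percent of genes whose RefSeq promoter holds TTTGAA or TTCGAA on either strand, over the whole window and within 50 bases of the start, with the number of genes in brackets. The mitosis and spindle genes stand at 77.5% and 72.5%, other mitotic regulators at 70% in both, and DNA replication genes at 21.7% and 4.35%.

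Mitotic entry genes fell in lung in 10 of 10 cases, with a median log2 change of -2.07. Pbk, a mitotic protein kinase, read 6.85, 7.24, 7.42 and 6.64 in dexamethasone lungs, against 10.39, 9.91, 10.65 and 10.20 in vehicle lungs. The groups stood over 2 log2 units apart with no overlap, and Pbk fell 9.51-fold, a log2 change of -3.25 ± 0.19 (adjusted p = 8.24e-09). Cdk1, the kinase that drives mitosis, read 7.61, 7.59, 7.65 and 7.08 in dexamethasone lungs, against 9.94, 9.67, 10.04 and 9.84 in vehicle lungs, again without overlap, and its change was -2.39 ± 0.17 (adjusted p = 5.84e-08). Ccnb2, a B-type cyclin that activates Cdk1, read 8.06, 7.99, 7.68 and 7.13 in dexamethasone lungs, against 9.63, 9.42, 9.76 and 9.61 in vehicle lungs. Every dexamethasone lung was lower, by a log2 change of -1.89 ± 0.20 (adjusted p = 2.29e-06).

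Foxm1, a transcription factor that switches on late cell cycle genes, fell far less. Its signal was 5.75, 6.501, 6.41 and 6.23 in dexamethasone lungs, against 7.001, 6.45, 7.16 and 7.07 in vehicle lungs, so the groups overlapped, with 1 dexamethasone lung above the lowest vehicle lung. The change was -0.70 ± 0.18 (adjusted p = 0.00742). Cdc25c, the phosphatase that activates Cdk1, also had a small fall of -0.63 ± 0.17, and it was the sole member with a vehicle lung mean under 6. The others ranged wider: Melk, a kinase of dividing progenitors, had a log2 change of -2.48, Aurka, the spindle pole kinase, -2.31, Ccna2, the cyclin of S and G2 phase, -2.21, Plk1, which acts from centrosomes to cytokinesis, -1.93, and Nek2, a kinase of centrosome separation, -1.45.

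Checkpoint and exit genes fell in 6 of 7 cases, with a median of -1.64. Ttk, the kinase that starts the checkpoint signal, read 4.99, 4.45, 4.86 and 4.65 in dexamethasone lungs, against 7.93, 7.37, 8.20 and 7.88 in vehicle lungs. All 4 dexamethasone lungs were near the dim end of the array, and the change was -3.11 ± 0.18 (adjusted p = 8.19e-09). Bub1, a kinase that recruits checkpoint proteins to kinetochores, fell by a like amount (-3.11), while Bub1b, its relative in the inhibitory complex, changed by -1.29 and Mad2l1, the protein that sequesters Cdc20, by -1.49. The order of Bub1 and Bub1b depended on the probe set. On the second brightest probe set of each gene, Bub1 changed by -1.11 and Bub1b by -2.13. Cdc20, the activator of the anaphase-promoting complex, fell by 2.49 on the log2 scale. Cdca3, a trigger of mitotic entry that is degraded at exit, read 7.21, 7.04, 6.54 and 6.42 in dexamethasone lungs, against 8.64, 7.93, 8.69 and 8.499 in vehicle lungs. These groups did not overlap, and its change was -1.64 ± 0.23 (adjusted p = 4.11e-05).

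Ube2c, the ubiquitin-conjugating enzyme that works with the anaphase-promoting complex, was not called. It read 9.63, 10.17, 9.56 and 8.27 in dexamethasone lungs, against 10.19, 9.85, 10.43 and 10.08 in vehicle lungs. A single dexamethasone lung, B46, was far below the others, while 1 of the other 3 lay within the vehicle range and 2 just under it. The log2 change was -0.73 ± 0.31 (adjusted p = 0.0821). It was -0.35 without array B46 and passed the threshold without array B31, at -0.98 with an adjusted p of 0.0185.

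Centromere and kinetochore genes were called lower in 7 of 7 cases, with a median log2 change of -2.75. Cenpf, a large coiled-coil protein of the kinetochore, read 4.99, 4.97, 5.06 and 5.12 in dexamethasone lungs, against 8.93, 8.74, 9.47 and 8.79 in vehicle lungs. The dexamethasone lungs were tightly grouped and all under the vehicle lungs, and Cenpf fell 15.4-fold, a log2 change of -3.95 ± 0.17 (adjusted p = 1.67e-10). Its second brightest probe set changed by -1.60. Cenpa, the histone H3 variant that marks centromeres, read 6.48, 6.67, 6.95 and 6.19 in dexamethasone lungs, against 9.15, 8.69, 9.502 and 9.07 in vehicle lungs. There was no overlap, and the change was -2.53 ± 0.21 (adjusted p = 2.14e-07).

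The 4 subunits of the Ndc80 complex, which grips microtubules, differed in size of change. Their log2 changes were -3.06 for Spc25, -2.99 for Nuf2, -1.89 for Ndc80 and -1.29 for Spc24, and the order was not tested. On its second brightest probe set, with a mean of 5.03, Spc25 changed by -0.26 and was not called (adjusted p = 0.301). Nuf2, Ndc80 and Spc24 have 1 probe set each. Cenpe, the kinetochore kinesin, fell by 2.75 on the same scale. In the chromosomal passenger complex 3 of 3 genes were called lower, with a median of -2.63. Birc5 (survivin), which brings the complex to centromeres, read 6.496, 6.44, 6.83 and 5.79 in dexamethasone lungs, against 8.95, 8.68, 9.51 and 8.95 in vehicle lungs, a change of -2.63 ± 0.22 (adjusted p = 1.88e-07) without overlap. Cdca8 (borealin), its partner, read 5.29, 6.29, 6.74 and 5.91 in dexamethasone lungs, against 9.36, 8.88, 9.57 and 9.27 in vehicle lungs. The dexamethasone lungs spread over more than 1 log2 unit, all far below the vehicle lungs, and the change was -3.21 ± 0.27 (adjusted p = 2.25e-07). Aurkb, the kinase of the complex, fell by 2.34.

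Among spindle motors and microtubule proteins 7 of 8 were called lower, with a median of -2.29. Kif22, a motor that binds chromosome arms, read 8.23, 8.32, 8.45 and 7.79 in dexamethasone lungs, against 10.63, 10.44, 10.80 and 10.59 in vehicle lungs. The change was -2.42 ± 0.15 (adjusted p = 1e-08), with no overlap. Kif4, another chromosome-bound motor, read 6.53, 6.16, 6.28 and 5.70 in dexamethasone lungs, against 7.84, 7.66, 8.06 and 7.87 in vehicle lungs, also without overlap, and changed by -1.69 ± 0.18 (adjusted p = 3.18e-06). Aspm, a spindle pole protein of dividing progenitors, fell 10.6-fold, to 5.45 ± 0.38 in dexamethasone lungs, against 8.86 ± 0.27 in vehicle lungs (SD, n = 4 each). On the second brightest probe set of Aspm the log2 change was -1.45. Kif11, the motor that pushes spindle poles apart, had a log2 change of -3.02, Kif2c, a microtubule depolymerase, -2.59, Tpx2, an activator of Aurka, -2.15, and Hmmr, a spindle-associated protein, -1.88.

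Nusap1, which bundles microtubules near chromosomes, was the second gene not called in lung. It read 9.51, 9.85, 9.18 and 6.84 in dexamethasone lungs, against 9.82, 9.28, 10.22 and 9.46 in vehicle lungs. Array B46 alone was far below the rest, and 2 of the other 3 dexamethasone lungs lay within the vehicle range. Its change was -0.85 ± 0.46 (adjusted p = 0.185), with a 95% interval from -1.83 to 0.13. Without B46 the change was -0.18.

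Cytokinesis genes had the most negative median of the 7 role groups in lung, at -2.90, and 7 of 7 were called lower. Racgap1, a subunit of centralspindlin, which bundles midzone microtubules, read 5.91, 6.04, 5.85 and 5.68 in dexamethasone lungs, against 8.98, 8.62, 9.13 and 8.91 in vehicle lungs. The gap between the groups was over 2 log2 units, and the change was -3.04 ± 0.15 (adjusted p = 1.41e-09). Anln, the scaffold protein anillin of the contractile ring, read 7.40, 7.64, 7.70 and 7.37 in dexamethasone lungs, against 9.89, 9.42, 9.96 and 9.91 in vehicle lungs. Again the groups did not overlap, and Anln changed by -2.27 ± 0.17 (adjusted p = 6.93e-08). Cep55, which recruits the abscission machinery to the midbody, fell 11.3-fold, to 5.66 ± 0.50 in dexamethasone lungs, against 9.15 ± 0.43 in vehicle lungs (SD, n = 4 each). Its second brightest probe set, with a mean of 4.23, had a log2 change of -0.38 (adjusted p = 0.0416). Prc1, which crosslinks midzone microtubules, had a log2 change of -2.92, Kif20a, a midzone motor, -2.90, Ect2, which acts in forming the cleavage furrow, -2.17, and Kif23, the motor of centralspindlin, -2.02.

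Chromosome structure genes were called lower in 6 of 6 cases, with a median of -1.99. Top2a, the topoisomerase that untangles sister chromatids, read 7.90, 7.72, 7.78 and 7.19 in dexamethasone lungs, against 10.71, 10.33, 10.74 and 10.66 in vehicle lungs. The change was -2.96 ± 0.17 (adjusted p = 8.19e-09), with every dexamethasone lung below the vehicle lungs. Mki67, the Ki-67 protein that coats mitotic chromosomes, read 9.56, 10.02, 9.80 and 8.75 in dexamethasone lungs, against 11.498, 11.22, 11.57 and 11.51 in vehicle lungs. It also showed no overlap, with a change of -1.92 ± 0.22 (adjusted p = 5.63e-06). Ncapg and Ncaph, subunits of condensin I, had log2 changes of -2.61 and -1.87. The core subunits shared by both condensins differed, with Smc2 at -2.06 ± 0.19 and Smc4 at -0.59 ± 0.19 (adjusted p = 0.025). Smc4 was not called when array B31 or B12 was left out, with an adjusted p of up to 0.0703.

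**Figure D3:**
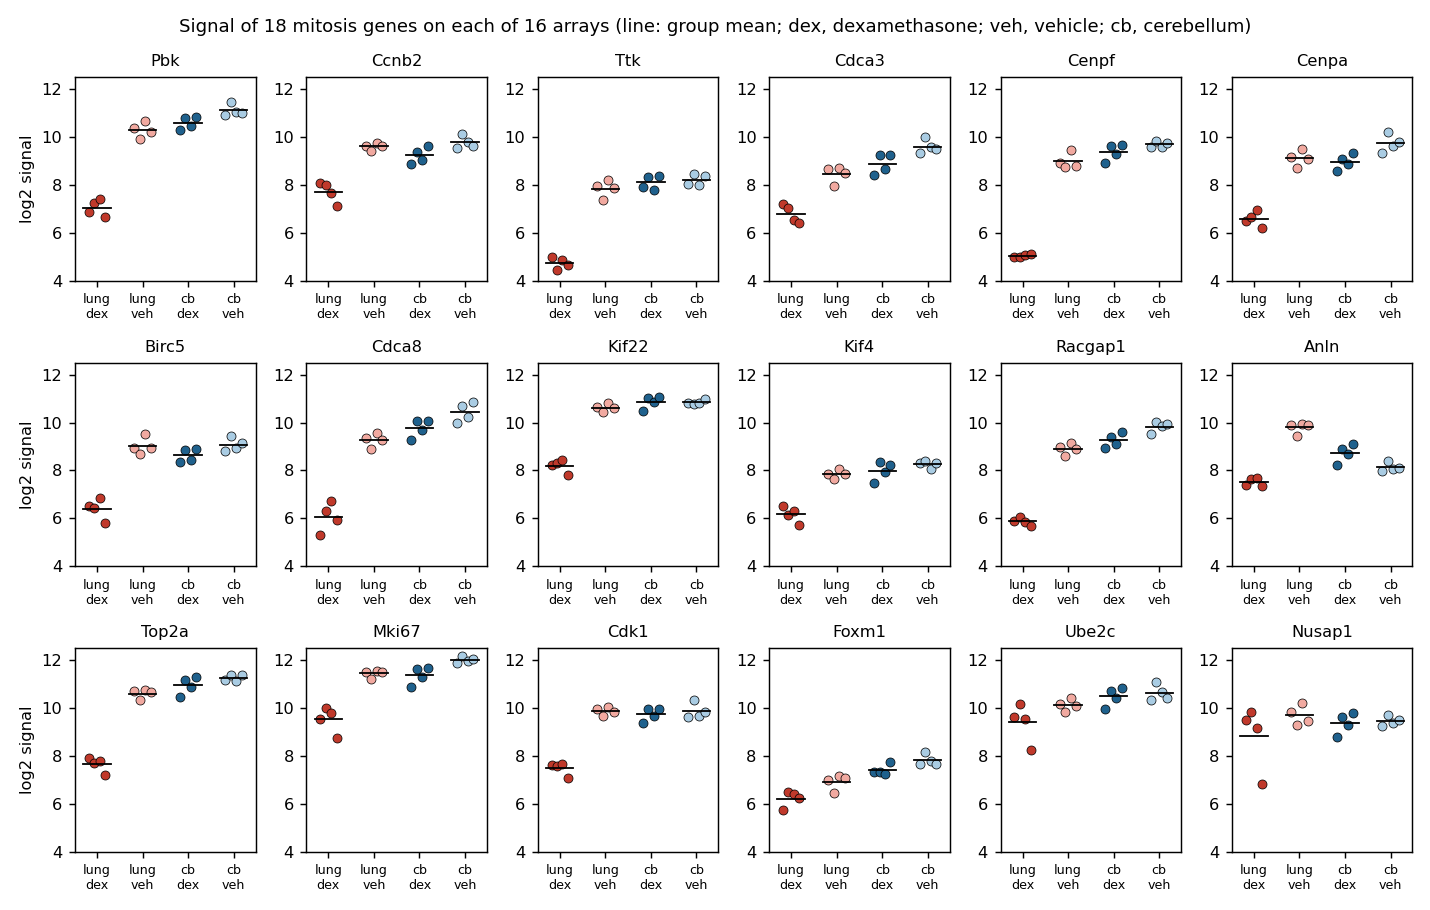
Log2 signal of 18 genes on each of the 16 arrays, one panel a gene, with lungs left of cerebella, dexamethasone left of vehicle, and a line at the group mean. In lung only the panels of Foxm1, Ube2c and Nusap1 show overlap between dexamethasone and vehicle arrays.

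Signals of some of the genes were low in dexamethasone lungs. A mean under 6 was found for 17 of the 48 genes in dexamethasone lungs and for 1 in vehicle lungs, while 36.6% and 37% of all genes lay under 6 in these groups. In dexamethasone lungs the members' share was thus near that of all genes. A value of 6 is near the middle of an array, as the array medians ran from 5.87 to 6.00. RMA is known to compress differences at low signals, so the folds of genes with low signals may understate a change, which was not tested. Over the 48 genes the median of the group means was 6.48 in dexamethasone lungs and 8.88 in vehicle lungs. In vehicle lungs the genes moved together from array to array, with B14 the lowest for 47 of the 48 and B19 the highest for 42. Dexamethasone lungs were less uniform: B46 was the lowest for 32 of the 48 and the highest for 7. Xist, the RNA of the inactive X chromosome, exceeded 9 in 3 of 4 dexamethasone lungs and in 1 of 4 vehicle lungs, and that vehicle lung was B14. With Xist as a covariate 46 genes were called lower in lung, with a median of -2.30.

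Other measurements moved with treatment in lung, and their part in the result was not tested. Over all genes 15.5% were called lower in lung and 15.7% higher. Neutrophil markers rose in 8 of 8 cases, with summed linear signals of 39493 to 57883 in dexamethasone lungs and 11286 to 17067 in vehicle lungs. Macrophage markers rose in 6 of 7 cases, with sums of 14262 to 25456 in dexamethasone lungs and 4902 to 5850 in vehicle lungs. Erythroid markers rose in 3 of 5 cases, with sums of 8598 to 13612 in dexamethasone lungs and 4222 to 8111 in vehicle lungs. Immune and red cell markers were thus called higher or not called, with 0 lower. Alveolar type 2 markers rose in 4 of 6 cases, with sums of 73205 to 79062 in dexamethasone lungs and 51944 to 63166 in vehicle lungs. Lung fibroblast markers fell in 4 of 7 cases, with sums of 25053 to 34971 in dexamethasone lungs and 50116 to 53664 in vehicle lungs. Endothelial markers fell in 5 of 8 cases, with sums of 10606 to 13404 in dexamethasone lungs and 15593 to 17867 in vehicle lungs. The log2 difference between 3′ and 5′ Gapdh probe sets, a sign of RNA length, was 0.446 to 0.708 in dexamethasone lungs and 0.84 to 1.04 in vehicle lungs. The same difference for beta-actin was 0.451 to 0.642 in dexamethasone lungs and 0.611 to 0.667 in vehicle lungs, and these groups overlapped.

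**Figure D4:**
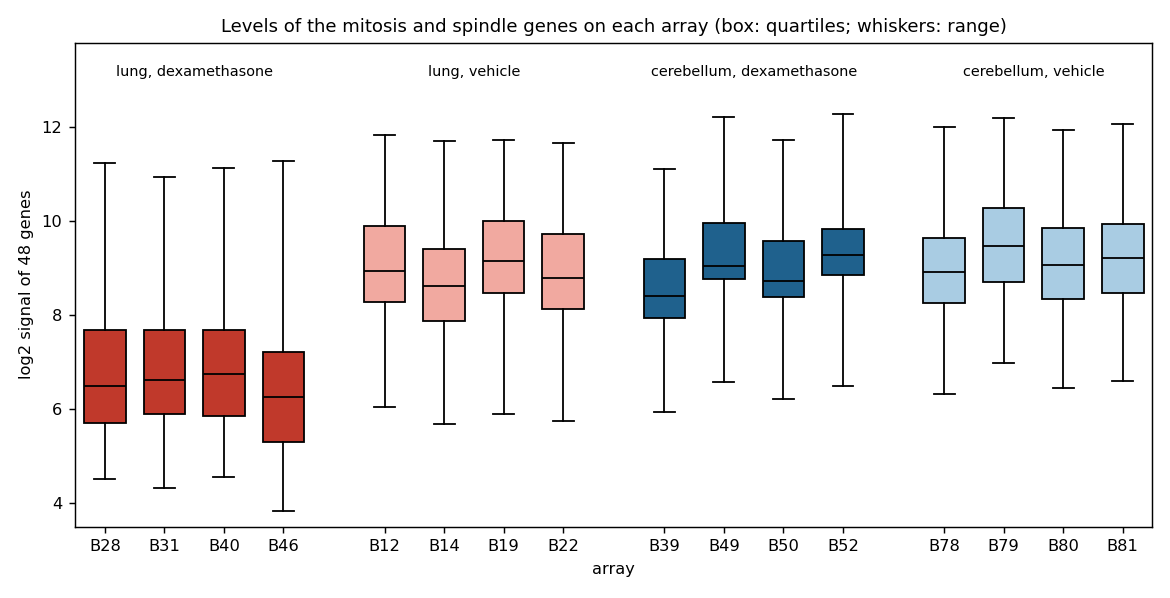
Log2 signal of the 48 genes on each array, as boxes with quartiles and range, with lungs left of cerebella and dexamethasone left of vehicle. The array medians are 6.26 to 6.75 in dexamethasone lungs, 8.62 to 9.16 in vehicle lungs, 8.40 to 9.28 in dexamethasone cerebella and 8.92 to 9.48 in vehicle cerebella.

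In cerebellum, 2 of the 48 genes were called lower with dexamethasone and 0 higher, that is 4.17% of them, where 1.97% of all genes were called lower and 2.84% higher. The median log2 change was -0.21, with all genes at 0.01. Below 0 were 37 of the 48 (77.1%), against 48.4% of all genes. At an unadjusted p under 0.05, 11 of the 48 were lower (22.9%), against 7.48% of all genes, and 1, Anln, was higher. The groups did not overlap for 5 of the 48 (10.4%), against 5.44% of all genes, and these were Pbk, Cdca3, Cenpa, Nuf2 and Mki67.

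Cenpa fell to 8.58, 9.10, 8.87 and 9.33 in dexamethasone cerebella, against 9.34, 10.19, 9.60 and 9.81 in vehicle cerebella, a change of -0.77 ± 0.21 (adjusted p = 0.0481). The highest dexamethasone cerebellum lay just under the lowest vehicle cerebellum. Racgap1 read 8.95, 9.39, 9.12 and 9.62 in dexamethasone cerebella, against 9.52, 10.02, 9.84 and 9.95 in vehicle cerebella, a change of -0.57 ± 0.15 (adjusted p = 0.0399), and 1 dexamethasone array lay within the vehicle range. Neither call held throughout. No member was called with the level of Xist in the model or in a fit of cerebellar arrays only, both genes lost their calls when any 1 of the arrays B39, B49, B50, B79, B80 or B81 was left out, and Xist exceeded 9 in 2 of 4 dexamethasone cerebella and 1 of 4 vehicle cerebella.

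Anln had the most positive cerebellar change of the 48 genes, and it was not called. It read 8.24, 8.91, 8.68 and 9.12 in dexamethasone cerebella, against 7.98, 8.39, 8.07 and 8.10 in vehicle cerebella, with a change of 0.60 ± 0.17 (adjusted p = 0.051). The lowest dexamethasone cerebellum, B39, lay within the vehicle range, and Anln was called higher without B39 and also with a filter on dim genes, with cyclic loess, with a variance trend and with array weights, that is under 5 of 17 alternatives, while its second brightest probe set changed by 0.02. Mki67 read 10.90, 11.64, 11.31 and 11.67 in dexamethasone cerebella, against 11.88, 12.19, 11.95 and 12.07 in vehicle cerebella. These did not overlap, yet its change of -0.64 ± 0.22 (adjusted p = 0.114) was not called. Cdca3 read 8.40, 9.23, 8.64 and 9.24 in dexamethasone cerebella, against 9.33, 9.99, 9.58 and 9.51 in vehicle cerebella, also without overlap, with a change of -0.72 ± 0.23 (adjusted p = 0.0845).

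Cdca8, Ccnb2 and Kif4 had the largest absolute cerebellar change of their roles, and none was called. Cdca8 read 9.29, 10.05, 9.71 and 10.05 in dexamethasone cerebella, against 10.001, 10.68, 10.24 and 10.86 in vehicle cerebella. Its groups overlapped narrowly, with a change of -0.67 ± 0.27 (adjusted p = 0.197). Ccnb2 read 8.85, 9.39, 9.04 and 9.63 in dexamethasone cerebella, against 9.54, 10.12, 9.80 and 9.62 in vehicle cerebella, a change of -0.54 ± 0.20 (adjusted p = 0.146), and 1 dexamethasone array exceeded the lowest vehicle array. Kif4 read 7.46, 8.33, 7.93 and 8.22 in dexamethasone cerebella, against 8.30, 8.40, 8.07 and 8.30 in vehicle cerebella, with overlapping groups and a change of -0.28 ± 0.18 (adjusted p = 0.508). Pbk had 10.28, 10.81, 10.45 and 10.83 in dexamethasone cerebella and 10.93, 11.48, 11.03 and 11.01 in vehicle cerebella, without overlap, and its change of -0.52 ± 0.19 (adjusted p = 0.152) was not called. The medians by role ran from -0.45 for the passenger complex to -0.04 for cytokinesis genes.

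Cenpf, Ttk, Top2a and Kif22, each called lower in lung, had cerebellar groups that overlapped. Cenpf read 8.92, 9.61, 9.27 and 9.67 in dexamethasone cerebella, against 9.58, 9.83, 9.58 and 9.76 in vehicle cerebella, a change of -0.32 ± 0.17 (adjusted p = 0.356). Ttk read 7.91, 8.33, 7.78 and 8.38 in dexamethasone cerebella, against 8.03, 8.45, 8.001 and 8.35 in vehicle cerebella, a change of -0.11 ± 0.18 (adjusted p = 0.871). In both genes 2 dexamethasone cerebella lay under the vehicle range and 2 within it. Top2a read 10.47, 11.18, 10.89 and 11.29 in dexamethasone cerebella, against 11.16, 11.38, 11.15 and 11.39 in vehicle cerebella, a change of -0.31 ± 0.17 (adjusted p = 0.409). Kif22 read 10.47, 11.04, 10.84 and 11.07 in dexamethasone cerebella, against 10.81, 10.79, 10.82 and 10.997 in vehicle cerebella, with means of 10.85 in dexamethasone cerebella and 10.86 in vehicle cerebella (adjusted p = 0.9996). For Top2a, too, 2 dexamethasone cerebella lay under the vehicle range and 2 within it, and for Kif22 1 lay under it, 1 within it and 2 above it.

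Birc5 read 8.35, 8.84, 8.44 and 8.90 in dexamethasone cerebella, against 8.80, 9.46, 8.93 and 9.14 in vehicle cerebella, a change of -0.45 ± 0.22 (adjusted p = 0.313). Cdk1 read 9.37, 9.98, 9.65 and 9.97 in dexamethasone cerebella, against 9.65, 10.34, 9.67 and 9.85 in vehicle cerebella, a change of -0.13 ± 0.17 (adjusted p = 0.819). Neither the passenger subunit nor the kinase was separated from vehicle. Foxm1 read 7.33, 7.34, 7.24 and 7.75 in dexamethasone cerebella, against 7.66, 8.15, 7.80 and 7.67 in vehicle cerebella, a change of -0.41 ± 0.18 (adjusted p = 0.262). Ube2c read 9.97, 10.72, 10.43 and 10.83 in dexamethasone cerebella, against 10.36, 11.07, 10.68 and 10.41 in vehicle cerebella, a change of -0.14 ± 0.31 (adjusted p = 0.91). Nusap1 read 8.78, 9.64, 9.28 and 9.79 in dexamethasone cerebella, against 9.25, 9.72, 9.38 and 9.52 in vehicle cerebella, a change of -0.10 ± 0.46 (adjusted p = 0.965). In all 3 the groups overlapped, and in lung Foxm1 alone of them was called.

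The members' spread in cerebellum was wide beside that of other genes. Their median SD was 0.36 in dexamethasone cerebella and 0.23 in vehicle cerebella, against 0.15 in each for all genes. In lung it was wide as well, at 0.34 in dexamethasone lungs and 0.25 in vehicle lungs, against 0.19 and 0.15 for all genes. Array B39 was the lowest dexamethasone cerebellum for 46 of the 48 genes and B52 the highest for 42, while B79 was the highest vehicle cerebellum for 42 and B78 the lowest for 36. Without B39 the median change of the 48 was -0.06. Markers of granule neuron progenitors were called in 0 of 8 cases by limma, with 0 of 8 at an unadjusted p under 0.05 and sums of 13198 to 18847 in dexamethasone cerebella and 15599 to 17525 in vehicle cerebella. Differentiated granule neuron markers rose in 2 of 6 cases, namely Gabra6, a receptor subunit for GABA, and Cbln3, a synaptic protein of the cerebellin family, with log2 changes of 1.23 and 0.84 and list sums of 13279 to 16959 in dexamethasone cerebella and 12810 to 13580 in vehicle cerebella. Lung fibroblast markers fell in 2 of 7 cases, with sums of 5484 to 6061 in dexamethasone cerebella and 7669 to 9920 in vehicle cerebella. Endothelial markers fell in 5 of 8 cases, with sums of 1524 to 1714 in dexamethasone cerebella and 2493 to 3111 in vehicle cerebella. Neutrophil and macrophage markers fell in 2 of 8 and 2 of 7 cases, and erythroid and brainstem markers were called in 0 of 5 and 0 of 6. The log2 difference between 3′ and 5′ Gapdh probe sets was 0.518 in the vehicle cerebellum B81 and 0.044 to 0.178 in the other cerebella. For beta-actin it was 0.942 in B81 and 0.524 to 0.694 in the others. The part of these marker lists and probe set differences in the members' values was not tested. Over all genes 1.97% were called lower in cerebellum and 2.84% higher.

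The difference between the organs' responses was tested as an interaction, the lung change minus the cerebellar change. It was called lower for 42 of the 48 genes and higher for 0 (87.5%), against 11.5% of all genes called lower and 9.85% higher, and its median was -2.16. Cenpf had -3.63 ± 0.23 (adjusted p = 9.68e-08), Ttk -3.00 ± 0.26 (adjusted p = 1.98e-06), Anln -2.87 ± 0.24 (adjusted p = 1.57e-06) and Mki67 -1.27 ± 0.31 (adjusted p = 0.0076). The lung fall thus exceeded the cerebellar change in these genes beyond the spread between arrays. For Cenpa and Racgap1, which were called lower in both organs, the interaction was -1.76 ± 0.30 (adjusted p = 0.000544) and -2.47 ± 0.21 (adjusted p = 1.98e-06). It was not called for Foxm1 (-0.29), Cdc25c (-0.34), Ube2c (-0.59), Cdca3 (-0.91), Nusap1 (-0.75) and Smc4 (-0.47).

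Between organs under vehicle, the genes differed less. Vehicle lungs were lower than vehicle cerebella for 17 of the 48 (35.4%) and higher for 2 (4.17%), with a median log2 difference of -0.38. Over all genes 29.7% were lower, so the members' share called lower was near that of all genes. Called in either direction were 39.6% of the members and 57.7% of all genes. For 27 of the 48 the arrays of the groups overlapped, and the share over all genes was not counted. The higher ones were both cytokinesis genes: Anln read 9.89, 9.42, 9.96 and 9.91 in vehicle lungs, against 7.98, 8.39, 8.07 and 8.10 in vehicle cerebella, a difference of 1.66 ± 0.17 (adjusted p = 1.65e-07), and Kif23 differed by 0.53 ± 0.20 (adjusted p = 0.0315). Among the lower ones were Cdca8 at -1.18, Cdca3 at -1.16, Racgap1 at -0.92 and Foxm1 at -0.90. Cdk1 averaged 9.87 ± 0.16 in vehicle lungs and 9.87 ± 0.32 in vehicle cerebella (SD, n = 4 each), and was not called (adjusted p = 0.991).

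Under dexamethasone the organs stood apart. Dexamethasone lungs were lower than dexamethasone cerebella for 47 of the 48 genes, against 33.0% of all genes, with a median log2 difference of -2.43, and the exception was Nusap1 (-0.53 ± 0.46 (adjusted p = 0.331)). For 45 of the 48 every dexamethasone lung was under all 8 cerebellar arrays, and the share over all genes was not counted. These tissue comparisons use the arrays of the treatment comparisons, and are no independent evidence beside them. Medians of the 48 group means were 6.48 in dexamethasone lungs, 8.88 in vehicle lungs, 8.87 in dexamethasone cerebella and 9.18 in vehicle cerebella.

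Other genes of the cell cycle were counted by list, and the lists were chosen with earlier results of these data known. The shares over all genes in lung were 15.5% called lower and 15.7% called higher. Of 22 other spindle, motor and cytokinesis genes, 19 fell in lung and 0 rose, with a median of -1.61. The smallest adjusted p there belonged to Spag5 (astrin), a spindle and kinetochore protein, at -2.65 ± 0.14 (adjusted p = 3.1e-09). Of 32 other kinetochore and centromere genes 25 fell and 1 rose, with a median of -0.89, and of 13 other mitotic regulators 9 fell and 0 rose, with a median of -1.59. Cenpp, a centromere protein, changed by -2.15 ± 0.18, Bora, a cofactor of Aurka, by -1.67 ± 0.15, and Zw10, a kinetochore protein that also acts in membrane traffic, was the one that rose, at 0.42 ± 0.13 (adjusted p = 0.0199).

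DNA replication genes, which act earlier in the cycle, fell in lung in 26 of 26 cases, with a median of -1.15, and Rrm2, a subunit of ribonucleotide reductase, changed by -2.53 ± 0.23 (adjusted p = 6.31e-07). In a list of the anaphase-promoting complex and its activator Fzr1, 7 of 13 genes were lower, with a median of -0.28. Cdc23, a subunit, changed by -0.69 ± 0.11. Cohesin genes and condensin genes outside the 48 were lower in 5 of 9 cases, with a median of -0.26, though Ncapg2, of condensin II, changed by -2.11 ± 0.17. Among 18 genes of the MuvB, Myb and E2F regulators 9 fell and 2 rose, with a median of -0.22. The 2 that rose were 11.1% of the list, under the 15.7% of all genes called higher. E2f3, an activating E2F factor, changed by -1.78 ± 0.17, and E2f2, its relative, by 0.89 ± 0.22 (adjusted p = 0.00464).

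G1 cyclins and Cdk inhibitors, 15 genes, were mixed, with 7 lower, 2 higher and a median of -0.52 in lung. The 2 higher ones were 13.3% of the list, under the 15.7% of all genes called higher. The inhibitors of cyclin-dependent kinases named here moved in opposite directions, and the other inhibitors of the list are not given. Cdkn2b (p15) averaged 11.38 ± 0.26 in dexamethasone lungs and 10.06 ± 0.12 in vehicle lungs (SD, n = 4 each), a change of 1.32 ± 0.14 (adjusted p = 3.19e-06), and Cdkn2c (p18) averaged 7.98 ± 0.32 in dexamethasone lungs and 10.69 ± 0.17 in vehicle lungs, a change of -2.70 ± 0.18 (adjusted p = 1.92e-08). The other gene of this list that rose was Cdkn1a (p21), at 1.39 ± 0.24. In cerebellum these 8 lists held 1 gene called higher, Mis12, a kinetochore protein, at 0.49 ± 0.12 (adjusted p = 0.0275), and 1 called lower, Cdk6, a G1 kinase, at -0.49 ± 0.12 (adjusted p = 0.0266). Over all genes 2.84% were called higher there and 1.97% lower. Of the 26 DNA replication genes 25 had a cerebellar change below 0 (96.2%), with a median of -0.27, against 48.4% of all genes. At an unadjusted p under 0.05, 26.9% of these 26 were lower, against 7.48% of all genes.

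**Figure D5:**
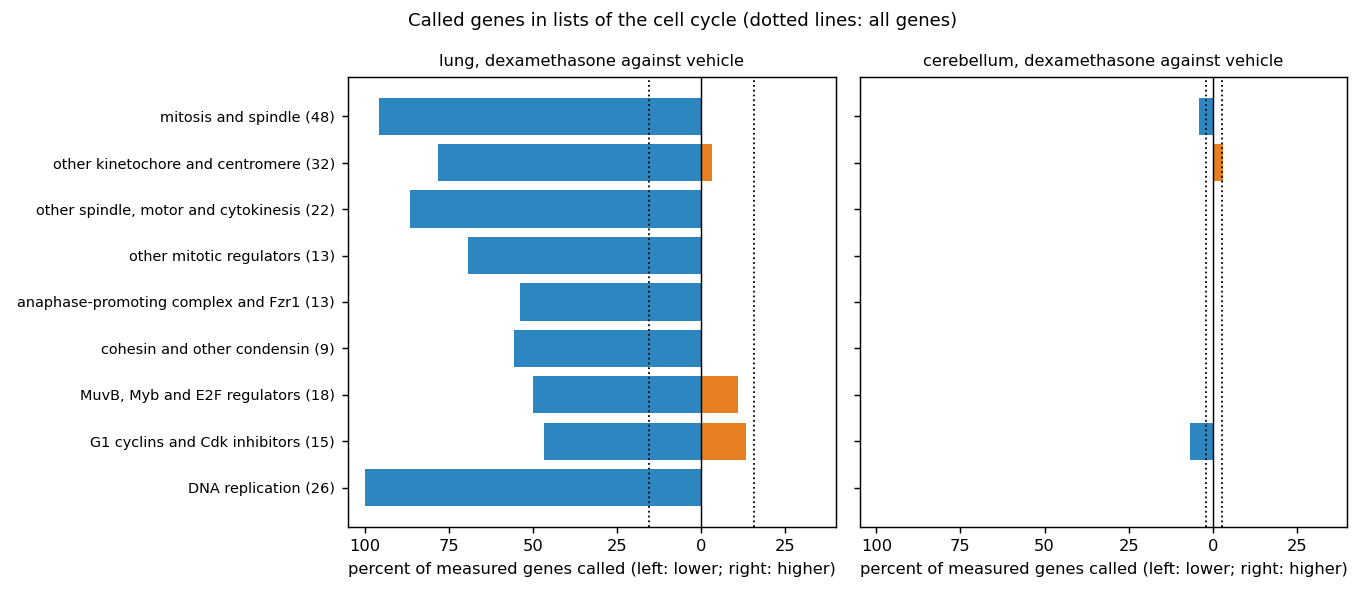
Percent of each list's measured genes called lower (left) and higher (right) with dexamethasone in lung and in cerebellum, with dotted lines at the shares over all genes. In lung the mitosis and spindle genes stand at 95.8% lower against 15.5% of all genes, and in cerebellum at 4.17% against 1.97%.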

How the data were processed

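RNA of 16 samples was measured on Affymetrix arrays, and the authors deposited log2 values. Per the submitters' processing notes these come from RMA, with no version or settings named. Of 45101 probe sets, 34945 name 1 gene symbol, and those with several were not used. A gene was represented by its probe set with the highest mean, which gave 18193 genes.

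Group means were fitted in R 4.3.3 by limma 3.58.1 and eBayes, leaving 12 residual degrees of freedom. P-values were adjusted by Benjamini-Hochberg over all genes, and the fit was tested on simulated data. Arrays give no read depth, and 4 per group limit the precision.

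All 49 genes are named by role. Values of every array are given for, in each role, the called gene with the smallest adjusted p in lung and the one with the largest absolute change in cerebellum, for Mki67, Cdk1 and Foxm1, and for each gene not called in lung or called in cerebellum. From each other list the called gene with the smallest adjusted p in each direction in lung, and up to 2 called in cerebellum, are named. Cdkn1a, Gabra6 and Cbln3 were named after their values were seen. The genes and lists were chosen with earlier results of these data known. Alternatives were other probe sets, a filter on dim genes, renewed normalization, other variance models, array weights, Xist as a covariate and leaving out arrays. The labels give every array the same hybridization date, and no other batch. Promoter windows came from RefSeq, build GRCm38.p6.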

Additional observations from a re-analysis of the deposited data

Results flagged for a closer look

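A sample far from the others of its group was found in 3 of the 76 groups of 4 arrays examined, and chance alone gives such a gap in about 1 of 20 groups. Kif22 read 10.997 in the vehicle cerebellum B81, above the other 3. Anln read 9.42 in the vehicle lung B14, below the other 3, and B14 was the lowest vehicle lung for 47 of the 48 genes. Cdk1 read 7.08 in the dexamethasone lung B46, below the other 3.

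The response to dexamethasone differed between lung and cerebellum by the test of the difference itself for 42 of the 48 genes, all lower in lung, where 11.5% of all genes were called lower. Among the genes given with every array, the lung change minus the cerebellar change was -3.63 for Cenpf, -3.00 for Ttk, -2.87 for Anln, -2.73 for Pbk, -2.65 for Top2a and -2.54 for Cdca8. It was -2.47 for Racgap1, -2.42 for Kif22, -2.26 for Cdk1, -2.18 for Birc5 and -1.76 for Cenpa. The values nearest to 0 among those called were -1.41 for Kif4, -1.35 for Ccnb2 and -1.27 for Mki67. Of these 14 genes Anln alone had a positive cerebellar value, at 0.60, with a lung value of -2.27.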

How the results depend on the processing

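No paired analysis was possible because the groups share no replicate numbers. In lung, 45 to 46 of the 48 genes were called lower with any 1 array left out, 46 under each of the 8 alternatives that keep all 48 genes and all lung arrays, and the median ran from -2.45 to -2.24 without 1 array. The choice of probe set moved sizes. With all probe sets of a gene averaged, the median was -1.79, and with the second brightest probe set, which 33 of the 48 genes have, it was -1.60. With that probe set 28 of the 33 were called in lung, 28 between organs under dexamethasone and 23 for the difference between organs. Cdca3 then changed by 0.11 in lung, on a probe set with a mean of 4.40. The difference between organs was called for 41 to 44 genes without 1 array, vehicle lung against vehicle cerebellum for 17 to 20, and dexamethasone lung against dexamethasone cerebellum for 47.

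The cerebellar calls did depend on the settings, and the cause was not tested. They numbered 4 with array weights (Anln higher, and Mki67, Cenpa and Racgap1 lower), 3 with a filter on dim genes, cyclic loess or a variance trend (Anln joining as higher), 1 with the mean of probe sets (Cenpa), and 1 with the second brightest probe set (Bub1, at -0.91 with an adjusted p of 0.00124). There were 0 by limma on the cerebellar arrays alone, with 15 lower and 1 higher at an unadjusted p under 0.05, and 0 with Xist as a covariate, with 9 lower and 1 higher. Without 1 array they numbered 0 to 2, and without B39 the 1 call was Anln, as higher. The cerebellar median ran from -0.33 to -0.06 without 1 array. Values near 0 changed sign: with array weights Cdk1 stood at 0.025, Kif22 at 0.062, Nusap1 at 0.065 and Ube2c at 0.060. Kif22 stood at 0.0063 with Xist as a covariate and between -0.074 and 0.13 without 1 array, and Nusap1 at 0.0485 on its second probe set and between -0.24 and 0.10 without 1 array. Without 1 array Cdk1 ran from -0.21 to 0.023, and Ube2c from -0.26 to 0.030.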
